A study of Mus musculus with 50 samples.

Results

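Astrocytes meet blood vessels and the brain surface with specialised processes, the endfeet, and are joined to each other by gap junctions. The genes described here encode 7 membrane proteins of these structures and were chosen by name: Aqp4, Kcnj10, Gja1, Gjb6, Mlc1, Hepacam and Slc4a4, out of 21938 protein-coding genes of the GENCODE M21 annotation of mm10. For each gene, the CUT&RUN peaks whose summit lay within 50 kb of the transcription start (the start of the gene record) were counted in every library. In CUT&RUN a nuclease is brought to the antibody of a bound protein and cuts out the DNA beside it, which is then sequenced. The proteins profiled were GR, the glucocorticoid receptor, which Nr3c1 encodes, and NFIA, a transcription factor of the nuclear factor I family. A peak is a stretch where the authors' peak caller found more fragments than in an IgG control, and the fold of a peak is its enrichment over the local background.

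The study compared GR binding between astrocytes of the mouse primary visual cortex (V1) of normally reared (NR) and dark-reared (DR) mice, and asked where GR binds and in which cells. All V1 libraries came from 175000 sorted GFP-positive nuclei at postnatal day 14, and each replicate pooled tissue of several mice. NR and DR astrocytes (3 libraries each) came from wild-type mice that received, around birth, an AAV2/5 virus with the astrocyte promoter GfaABC1D driving ΔCre, an inactive recombinase, and EGFP-KASH, a GFP of the nuclear envelope, and with the element 4x6T. The same virus in GR fl/fl mice, normally reared, gave the GR-con astrocytes (2 libraries), and its counterpart with active Cre gave the GR-KO astrocytes (2 libraries), so that all 4 of these libraries carry the floxed alleles. Per the labels, astrocytes of the NFIA libraries (3) came from normally reared wild-type mice with the ΔCre virus, while the study's methods also speak of NFIA libraries from GR fl/fl mice. Oligodendrocytes, inhibitory neurons and excitatory neurons of NR mice (3 libraries each for GR and for NFIA) were labelled without virus, by a Sun1-GFP reporter that was switched on by Cre under Olig2, Slc32a1 (Vgat) or Slc17a7 (Vglut1), so cell type and labelling method cannot be told apart. GR was also profiled in 3T3 fibroblasts after 2 h in 200 nM dexamethasone (DEX), a synthetic glucocorticoid, or in vehicle, with 2 libraries each from 50000 and from 250000 nuclei.

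The glucocorticoid receptor is held in the cytoplasm until it binds a glucocorticoid hormone, then enters the nucleus and binds DNA, often at response elements or beside other factors. Nuclear factor I proteins take part in the formation of astrocytes and in the expression of many astrocyte genes. At the endfoot, the water channel aquaporin (Aqp4) is anchored beside the inwardly rectifying potassium channel of Kcnj10, which clears potassium after neuronal firing. Gja1 and Gjb6 encode the main connexins of astrocyte gap junctions. Mlc1 and Hepacam encode an endfoot membrane protein and the adhesion molecule that keeps it in place, and human mutations in either cause a leukodystrophy with cysts. Slc4a4 encodes the electrogenic sodium bicarbonate cotransporter through which astrocytes buffer pH.

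The peak lists differed widely in length, from 1 to 27143 peaks, and the read depth behind them is unknown. NR GR lists held 2262 to 21539 peaks, with replicate 2 far shorter than the others, and DR lists held 28 to 293. Sites near marker genes were read as a check of the sorted cell types: all 6 astrocyte markers (Aldh1l1, Slc1a3, Sox9, Gfap, S100b and Fgfr3) had a GR site in NR astrocytes and an NFIA site in astrocytes, a site being a region with a peak in 2 or more libraries of the group. Of all protein-coding genes, 50.4% had a GR site in NR astrocytes and 65.2% an NFIA site in astrocytes. Of 6 oligodendrocyte markers, 3 had a GR site and 4 an NFIA site in NR astrocytes, with 4 to 29 summed GR peaks per library, and 0 had one in oligodendrocytes, whose lists held 0 peaks near any of the 6, so peaks give no check of the oligodendrocyte label. Of 5 excitatory neuron markers, 1 had a GR site and 0 an NFIA site in excitatory neurons, against 1 and 2 in NR astrocytes. Of 6 inhibitory neuron markers, 0 had a GR site and 2 an NFIA site in inhibitory neurons, against 1 and 2 in NR astrocytes. By number alone, these markers did not tell the neuron libraries from the astrocyte libraries. Of all protein-coding genes, 4.99% had a GR site and 3.53% an NFIA site in inhibitory neurons, and 8.82% and 1.97% in excitatory neurons. These shares lie far below those of astrocytes, so equal marker numbers do not mean the same in both. The deletion could not be checked at Nr3c1 itself, since peak lists do not show a missing exon.

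The regions that recur in the results are shown here as 101 bp around the summit of the peak with the highest fold in any library, GR or NFIA. They were read from the plus strand of the RefSeq genome GRCm38.p6, the assembly of mm10. Capitals mark a nuclear factor I half-site (TTGGCA or its reverse complement) or an AP-1 site (TGANTCA). Lower-case sequences hold none of the 6 motifs searched. The first set holds the regions with a GR peak in all 3 NR libraries, other than those of Aqp4 and Kcnj10, which are given by position only. The Hepacam sequence is centred on an NFIA peak, and the GR summits of the NR libraries (37359180, 37358819 and 37359171) lie outside it. In the first Gjb6 sequence, also centred on an NFIA peak, the GR summits of NR replicates 1 and 3 (57115967 and 57115981) lie outside.
Gjb6, 17.6 kb downstream (chr14:57115990-57116090): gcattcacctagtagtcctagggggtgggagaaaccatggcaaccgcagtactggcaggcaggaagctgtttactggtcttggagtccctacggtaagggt
Gjb6, 1.3 kb downstream (chr14:57132233-57132333): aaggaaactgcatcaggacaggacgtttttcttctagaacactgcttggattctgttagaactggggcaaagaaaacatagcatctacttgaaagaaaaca
Hepacam, 8.5 kb upstream (chr9:37358833-37358933): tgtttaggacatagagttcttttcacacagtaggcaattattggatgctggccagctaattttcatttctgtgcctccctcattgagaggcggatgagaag

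The second set holds regions at the starts of the genes, where GR and NFIA peaks shared a position.
Gja1, start (chr10:56377232-56377332): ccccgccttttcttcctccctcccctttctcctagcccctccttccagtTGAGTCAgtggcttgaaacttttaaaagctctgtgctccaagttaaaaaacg
Mlc1, start (chr15:88978989-88979089): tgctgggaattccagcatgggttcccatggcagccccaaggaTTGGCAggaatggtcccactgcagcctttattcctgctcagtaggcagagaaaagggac
Mlc1, 389 bp downstream (chr15:88978568-88978668): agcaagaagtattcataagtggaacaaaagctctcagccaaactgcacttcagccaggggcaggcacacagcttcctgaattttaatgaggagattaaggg
Hepacam, 249 bp downstream (chr9:37367550-37367650): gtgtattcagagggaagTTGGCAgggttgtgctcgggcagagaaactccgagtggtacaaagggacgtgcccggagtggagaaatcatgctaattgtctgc
Slc4a4, start (chr5:88886750-88886850): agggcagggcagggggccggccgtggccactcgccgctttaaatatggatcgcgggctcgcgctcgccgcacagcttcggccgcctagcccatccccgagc

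The last set holds a region that kept a GR peak in a GR-KO library, a region with a GR peak in a DR library and no NFIA peak, and a region whose GR peaks came from excitatory neurons alone.
Kcnj10, 32.6 kb upstream (chr1:172308592-172308692): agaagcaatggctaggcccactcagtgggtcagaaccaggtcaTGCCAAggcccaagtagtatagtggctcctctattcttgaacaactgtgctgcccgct
Gjb6, 28.5 kb upstream (chr14:57162052-57162152): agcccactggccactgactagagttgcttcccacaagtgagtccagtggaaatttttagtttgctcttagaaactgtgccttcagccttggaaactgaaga
Kcnj10, 17.0 kb upstream (chr1:172324112-172324212): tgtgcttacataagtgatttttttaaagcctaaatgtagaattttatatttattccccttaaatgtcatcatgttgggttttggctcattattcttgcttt

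GR peaks lay near 6 of the 7 genes in at least 2 NR libraries, and near 2 of the 7 in a single DR library. Kcnj10 (1:172341210-172374085, plus strand, ENSMUSG00000044708.5) had 16, 1 and 21 GR peaks in NR replicates 1, 2 and 3 and 0 in each DR library. Aqp4 (18:15389496-15410982, minus strand, ENSMUSG00000024411.10) had 3, 3 and 7 GR peaks in the NR libraries and 0, 0 and 1 in the DR libraries. Gjb6 (14:57123303-57133611, minus strand, ENSMUSG00000040055.9) had 4, 3 and 5 in the NR libraries and 0, 0 and 1 in the DR libraries. At these 3 genes every NR library lay above every DR library. Kcnj10 was the most variable of them, since NR replicate 2 held 1 of its peaks where the other libraries held 16 and 21, while Aqp4 and Gjb6 kept 3 peaks each in that short list.

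Hepacam (9:37367351-37386575, plus strand, ENSMUSG00000046240.8) had 5, 1 and 6 GR peaks in the NR libraries and 0 in the DR libraries, without overlap. Its partner Mlc1 (15:88955884-88979007, minus strand, ENSMUSG00000035805.13) had 1, 0 and 2, and Gja1 (10:56377330-56402513, plus strand, ENSMUSG00000050953.10) had 1, 0 and 1, against 0 in every DR library, so at both genes NR replicate 2 overlapped the DR group. Slc4a4 (5:88886818-89239653, plus strand, ENSMUSG00000060961.14) had a single GR peak, in NR replicate 3.

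The mean difference between NR and DR was 12.67 peaks per library at Kcnj10, 4 at Aqp4, 4 at Hepacam, 3.67 at Gjb6, 1 at Mlc1, 0.67 at Gja1 and 0.33 at Slc4a4. For the 4 genes without overlap the two-sided exact permutation test gave p = 0.1, the smallest that 3 libraries against 3 can give, with a Benjamini-Hochberg adjusted p = 0.779 over 21938 genes. So 4 of the 7 genes separated fully, beside 10.6% of all protein-coding genes, and the median difference was 3.67 peaks over the 7 genes and 0.667 over all genes. Of all genes 0 passed an adjusted p of 0.05 in this permutation test, and 0 had an unadjusted p under 0.05. Per 1000 peaks of a list the difference was -0.52 at Aqp4 and -0.52 at Gjb6, with DR replicate 3, a list of 293 peaks, above the NR libraries, while Kcnj10 and Hepacam kept the separation, beside 10.3% of all genes. Without NR replicate 2, 6 of the 7 genes separated, Gja1 and Mlc1 being added, beside 50.7% of all genes. Fewer nuclei with bound GR and weaker binding in each nucleus cannot be told apart in such lists.

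**Figure D1:**
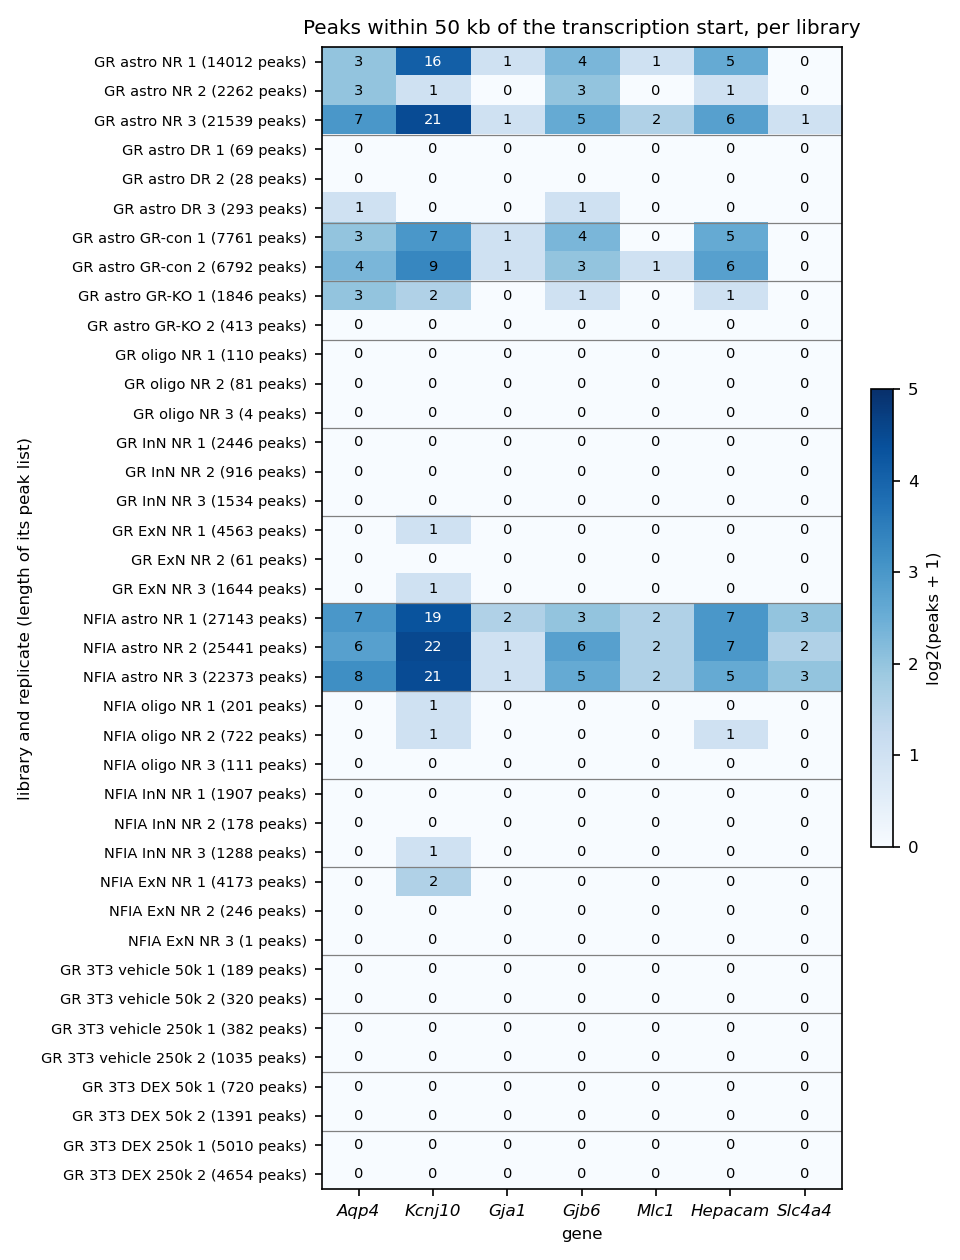
Number of peaks within 50 kb of the transcription start of each gene (columns) in each of the 39 libraries (rows, with the replicate number and the length of the peak list), with colour showing log2(peaks + 1). NR GR astrocytes and NFIA astrocytes hold most peaks, Kcnj10 reaches 21 and 22, and all 8 rows of 3T3 cells are 0.

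Receptor deletion was compared with its virus control in the same floxed mice. Kcnj10 had 7 and 9 GR peaks in the GR-con libraries and 2 and 0 in the GR-KO libraries. Hepacam had 5 and 6 against 1 and 0, Gjb6 4 and 3 against 1 and 0, and Gja1 1 and 1 against 0 and 0. These 4 of the 7 genes did not overlap, beside 20.0% of all protein-coding genes, with mean differences of 7 peaks at Kcnj10, 5 at Hepacam, 3 at Gjb6 and 1 at Gja1. Aqp4 had 3 and 4 peaks against 3 and 0, so GR-KO replicate 1 matched GR-con replicate 1, and per 1000 peaks of a list the Aqp4 difference was -0.32. Mlc1 had 0 and 1 peaks against 0 and 0, and Slc4a4 had 0 in all 4 libraries.

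With 2 libraries against 2 the exact permutation test cannot go below p = 0.33, which the 4 separated genes had, and their adjusted p was 1. The median difference was 2 peaks over the 7 genes and 0 over all genes. Per 1000 peaks of a list, 2 of the 7 genes separated, Gja1 and Hepacam, beside 17.4% of all genes, with list lengths of 7761 and 6792 peaks for GR-con against 1846 and 413 for GR-KO. Every peak that remained near the 7 genes after deletion came from GR-KO replicate 1, and without that library 5 genes separated, beside 22.7% of all genes. Without GR-con replicate 1, 6 did, beside 30.5%.

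Among the NR lists of the sorted V1 cells, nearly all GR peaks near these genes came from astrocytes, whose lists reached 21539 peaks. Oligodendrocyte lists (4 to 110 peaks) and inhibitory neuron lists (916 to 2446 peaks) held 0 GR peaks within 50 kb of any of the 7 genes. Excitatory neuron lists held 1 peak each in replicates 1 and 3, both near Kcnj10, and 0 in replicate 2. NR astrocytes lay above all 9 other NR libraries at Aqp4 (mean difference 4.33 peaks), Gjb6 (4) and Hepacam (4), with an exact permutation p = 0.00909, the smallest 3 against 9 libraries can give, and an adjusted p = 0.201. These were 3 of the 7 genes, beside 4.52% of all protein-coding genes. Kcnj10 differed by 12.44 peaks but overlapped, since NR replicate 2 and the 2 excitatory neuron libraries each held 1 peak (exact permutation p = 0.0273, adjusted p = 0.246).

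The median difference between astrocytes and other V1 cells was 4 peaks over the 7 genes and 0.556 over all genes. Of all genes 0 passed an adjusted p of 0.05 in this permutation test, and 2040 had an unadjusted p under 0.05. Taken 1 cell type at a time, 4 of the 7 genes separated from oligodendrocytes (10.3% of all genes), 4 from inhibitory neurons (6.92%) and 3 from excitatory neurons (5.29%), Kcnj10 being the gene lost to overlap in excitatory neurons. Without NR replicate 2 the number separated from all other cells was 6, beside 37.9% of all genes.

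V1 lists of similar length differed in these numbers. NR replicate 2 held 8 peaks near the 7 genes in a list of 2262, and GR-KO replicate 1 held 7 in a list of 1846. Inhibitory neuron replicate 1 held 0 in a list of 2446, and excitatory neuron replicate 1 held 1 in a list of 4563. Their antibody, IgG control and read depth could still differ in ways the lists do not show, and the part of these in the zeros was not tested.

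**Figure D2:**
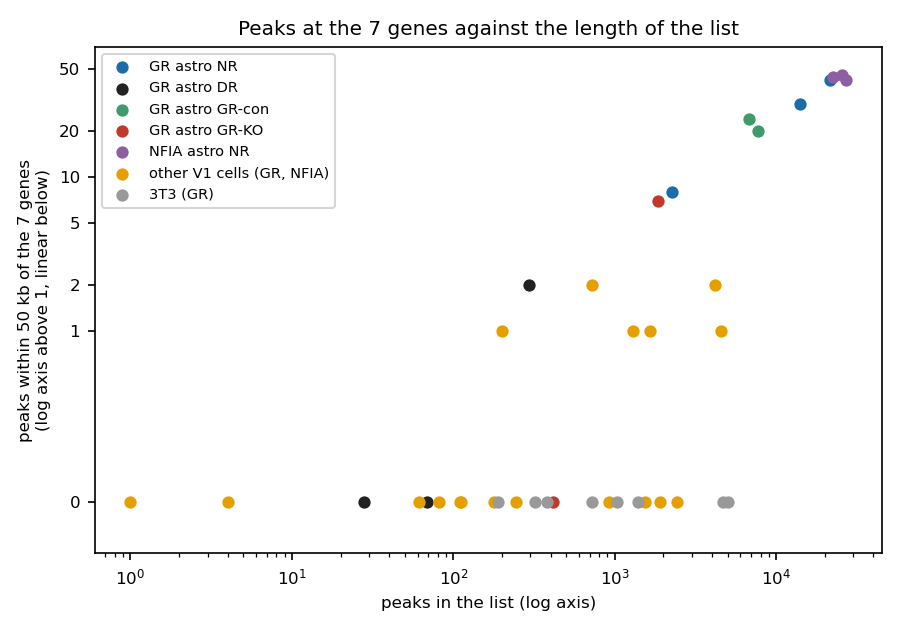
Summed number of peaks within 50 kb of the 7 genes against the number of peaks in the list, both on log axes (the vertical axis is linear below 1), 1 point per library. Astrocyte libraries with 1846 or more peaks hold 7 to 46 peaks near the genes, in lists of up to 27143. Lists of other V1 cells with 1907 to 4563 peaks hold 0 to 2. The astrocyte lists nearest to them in length, with 1846 and 2262 peaks, hold 7 and 8. Lists of 3T3 cells, whose lengths rest on a looser q threshold, hold 0.

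NFIA peaks lay near all 7 genes in every NFIA astrocyte library. Kcnj10 had 19, 22 and 21 NFIA peaks, Aqp4 7, 6 and 8, Hepacam 7, 7 and 5, and Gjb6 3, 6 and 5. Slc4a4, nearly bare of GR peaks around its first start, had 3, 2 and 3 NFIA peaks there, Mlc1 2 in each library, and Gja1 2, 1 and 1. The NFIA replicates thus lay closer together than the NR GR replicates, with 43, 46 and 45 summed peaks against 30, 8 and 43.

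In the other V1 cells NFIA peaks were rare near these genes. Kcnj10 had 1 NFIA peak in each of oligodendrocyte replicates 1 and 2 and inhibitory neuron replicate 3, and 2 in excitatory neuron replicate 1. Hepacam had 1 in oligodendrocyte replicate 2, and the other 5 genes had 0 in all 9 libraries. All 7 genes separated from the other cells, beside 50.4% of all protein-coding genes, and all 7 had an exact permutation p = 0.00909 and an adjusted p = 0.0180, as did 55.2% of all genes at an adjusted p of at most 0.05. The mean difference ran from 1.33 peaks at Gja1 to 20.1 at Kcnj10, and the median was 4.67 over the 7 genes and 1.33 over all genes. Lists of NFIA peaks held 22373 to 27143 peaks in astrocytes and 1 to 4173 in the other cells, and per 1000 peaks of a list the Kcnj10 difference turned to -0.012. All 7 genes also separated from each other cell type alone, beside 59.6% of all genes for oligodendrocytes, 56.1% for inhibitory neurons and 53.5% for excitatory neurons.

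In 3T3 fibroblasts the 7 genes had 0 GR peaks in all 8 libraries, with or without DEX. Lists held 189 to 1035 peaks in vehicle and 720 to 5010 in DEX. Beside these 0 of 7 genes, 1.47% of all protein-coding genes lay higher in DEX than in vehicle at both numbers of nuclei, and the median difference was 0 peaks over the 7 genes and over all genes. The smallest p of this stratified exact permutation test is 0.0556, so 0 genes had an unadjusted p under 0.05. The 3T3 lists had passed a looser q threshold than the V1 lists, so no test was made between them.

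Merged over all libraries, the peaks around the 7 genes formed 58 regions, 25 of them at Kcnj10, 9 each at Aqp4 and Hepacam, 8 at Gjb6, 3 at Slc4a4 and 2 each at Gja1 and Mlc1. In astrocytes 46 regions had a GR peak and 51 an NFIA peak, and 41 had both. By position 28 lay in introns, 16 at promoters (within 500 bp of any annotated start), 13 between genes and 1 in an exon. The nearest protein-coding start was that of the gene itself for 35 regions, including all 9 of Aqp4 but only 7 of the 25 of Kcnj10. The Kcnj10 window also holds the starts of Kcnj9 (11.9 kb away) and Pigm (35.3 kb), that of Gjb6 the starts of Gjb2 (28.9 kb) and Gm4491 (17.7 kb), that of Hepacam those of Ccdc15 (18.9 kb) and Robo4 (34.5 kb), and that of Mlc1 those of Mov10l1 (3.9 kb) and Ttll8 (24.6 kb). Peaks there are counted for each of these genes alike.

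The NR libraries shared few regions. Of the 44 regions with a GR peak in NR astrocytes, 7 were called in all 3 libraries and 21 in replicates 1 and 3 without 2. A further 14 came from replicate 3 alone and 1 from replicate 1 alone. All 7 regions of the first kind also had a peak in both GR-con and all 3 NFIA libraries. They lay at Aqp4 (3), Gjb6 (2), Kcnj10 (1) and Hepacam (1).

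**Figure D3:**
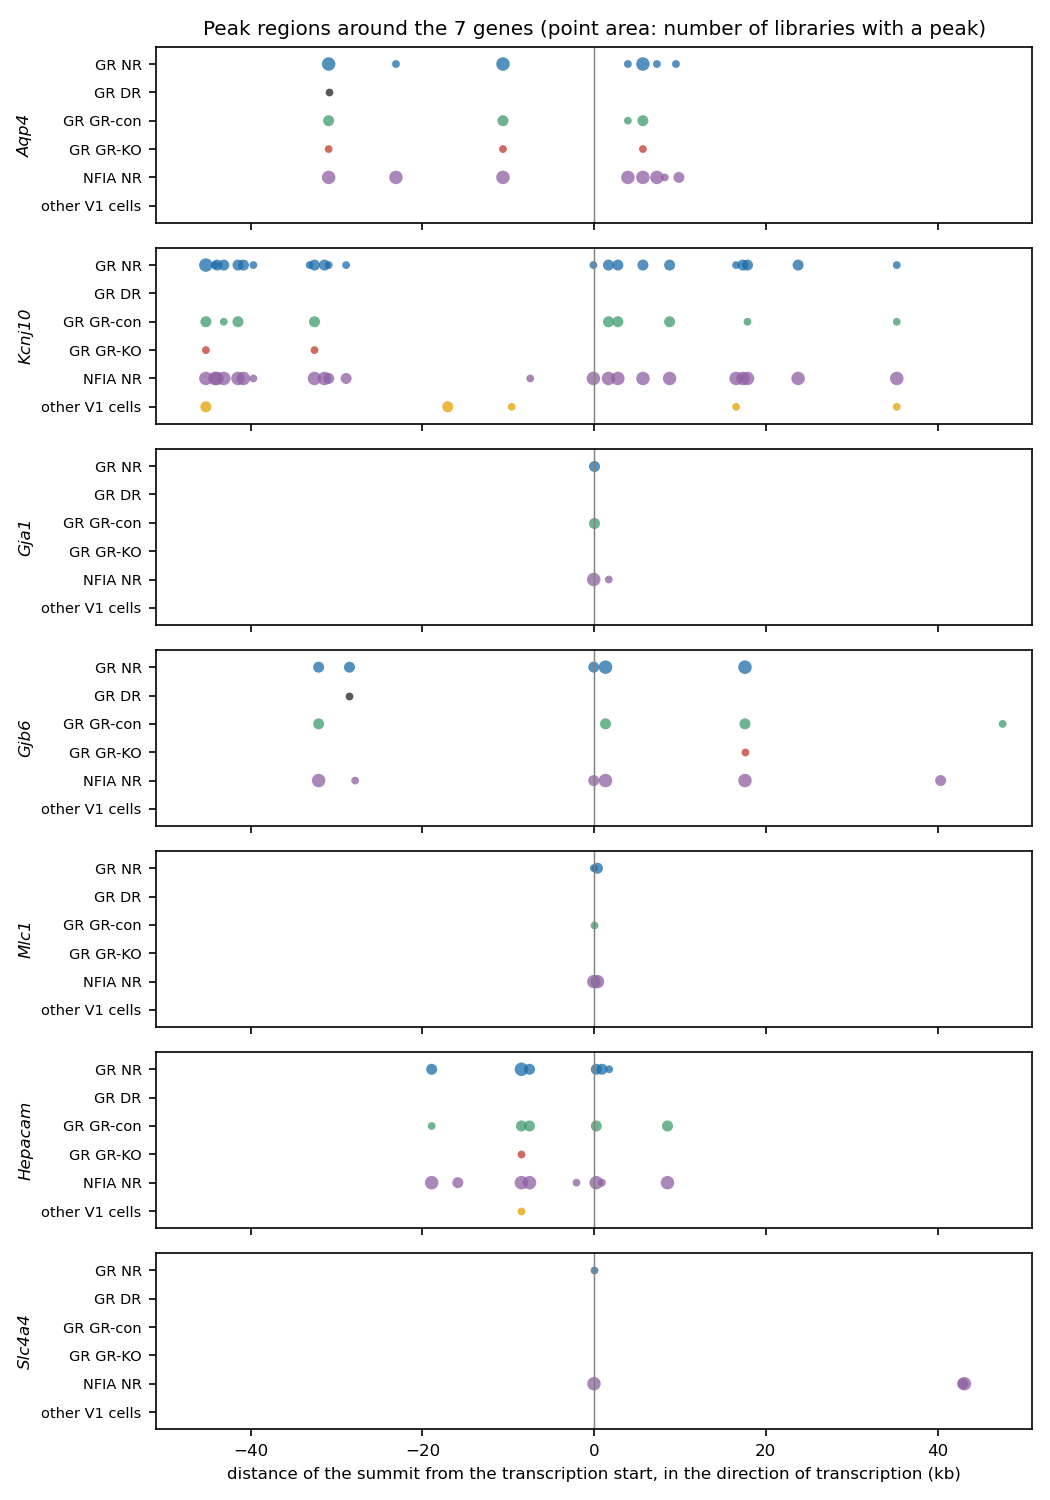
Distance of each region's summit from the transcription start of its gene in kb, in the direction of transcription, for the 7 genes (panels) and 6 sets of libraries (rows), with the point area showing the number of libraries with a peak. Kcnj10 holds 25 regions on both sides of its start, Gja1 and Mlc1 hold 2 each close to the start, and the DR row holds 2 points, at 30.9 kb upstream of Aqp4 and 28.5 kb upstream of Gjb6.

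The water channel gene Aqp4 held the region that ranked highest of the 58 in each NR GR list. It lay 5.7 kb downstream of the start, in an intron of Aqp4 and of the overlapping gene AC133525.2 (18:15405130-15405453). Its fold was 17.8, 12.3 and 30.2 in NR replicates 1 to 3, within the top 0.978%, 4.24% and 0.232% of those lists by fold. In the GR-con libraries it was 10.0 and 13.1 (top 8.38% and 2.08%), in GR-KO replicate 1 it was 8.01 (top 18.4%), and no DR list held it. The NFIA folds were 28.3, 22.1 and 17.4 (top 1.59%, 2.94% and 4.30%). Folds are set against the background of their own library, so folds of different libraries are not comparable in size. They are given as values of each peak, and only ranks within a list can be set side by side.

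A second Aqp4 region, 10.6 kb upstream in an exon of AC133525.2 (18:15421347-15421746), had NR folds of 6.34, 6.24 and 14.8 and GR-con folds of 8.89 and 6.39. In GR-KO replicate 1 its fold was 9.36, within the top 9.05% of that list, the highest rank that any of the 7 genes' peaks reached in a GR-KO list. A further Aqp4 region, 30.9 kb upstream between genes (18:15441836-15442152), was one of the 2 regions with a peak in a DR list. Its fold was 10.2 in DR replicate 3 (top 29.0%). In the NR libraries its folds were 4.57, 7.38 and 4.95 (top 77.9%, 25.9% and 76.4%), so by rank NR replicate 2 lay above DR replicate 3. It held a nuclear factor I half-site (from 15441856) within 50 bp of the summit in DR replicate 3 (15441900). The NFIA summits of this region lay further off, at 15442004 to 15442015. The other Aqp4 regions with GR peaks, from 9.5 kb downstream to 23.1 kb upstream, came from NR replicate 3, and 1 of them (3.9 kb downstream) also from GR-con replicate 2.

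At Kcnj10 the region in all 3 NR libraries lay 45.2 kb upstream (1:172295729-172296795), in an intron of Igsf8. Its NR folds were 12.1, 5.94 and 23.8, its GR-con folds 9.89 and 9.73, and its GR-KO fold 4.87 in replicate 1 (top 74.9%). It was also the strongest NFIA region of the 7 genes, with folds of 38.7, 31.7 and 24.2 (top 0.483% to 1.15%), and NFIA peaks of oligodendrocyte replicates 1 and 2 fell in it with folds of 4.33 and 5.32. The region 32.6 kb upstream in an intron of Igsf8 (1:172308461-172308760) had GR folds of 13.9 and 21.8 in NR replicates 1 and 3, 5.00 and 5.22 in GR-con and 4.46 in GR-KO replicate 1. Its sequence above holds a half-site near the summit.

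Closer to the potassium channel's own start, GR peaks of NR replicates 1 and 3 lay in its introns 1.7 kb (folds 9.68 and 15.3), 2.8 kb (14.4 and 10.9) and 8.8 kb (7.60 and 13.3) downstream, and both GR-con libraries had a peak in each. At the Kcnj10 promoter only NR replicate 3 had a GR peak, with a fold of 3.80, beside NFIA peaks in all 3 astrocyte libraries. The 2 GR peaks of excitatory neurons, with folds of 4.51 and 3.14, shared a region 17.0 kb upstream in an intron of Kcnj9 (1:172324112-172324246) that had no astrocyte peak. The NFIA peak of inhibitory neuron replicate 3 lay 16.5 kb downstream with a fold of 9.94, within the top 2.02% of its list, where all 3 NFIA astrocyte libraries and NR replicate 3 also had a peak.

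The connexin genes differed in layout. Gja1 had 1 GR region, at its start (10:56377180-56377413), with folds of 7.94 and 9.17 in NR replicates 1 and 3, of 7.31 and 4.79 in GR-con and of 6.74, 7.74 and 7.44 for NFIA. The AP-1 site shown in its sequence was 1 of 2 such matches among the NR regions of the 7 genes, and no peak was called there in DR or GR-KO. Gjb6 had GR regions on both sides. Its region 17.6 kb downstream at the start of Gm4491 (14:57115824-57116303) had NR folds of 6.96, 6.05 and 13.5, GR-con folds of 8.004 and 5.43, and a GR-KO fold of 5.45 in replicate 1 (top 62.7%). The region 1.3 kb downstream, at an inner start of Gjb6 (14:57132020-57132453), had NR folds of 8.64, 7.53 and 8.73 and GR-con folds of 13.3 (top 2.24%) and 5.74, with no GR-KO peak.

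The Gjb6 region 28.5 kb upstream (14:57162049-57162152) stood apart from the others. It had a GR peak in NR replicates 2 and 3 (folds 9.58 and 7.19, top 9.20% and 43.4%) and in DR replicate 3 (fold 11.97, top 22.2%). It had none in GR-con, GR-KO or NFIA libraries. A neighbouring region 32.1 kb upstream (14:57165507-57165862) had folds of 3.95 and 10.5 in NR replicates 1 and 3 and of 11.7 and 6.84 in GR-con, and held the other AP-1 match.

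Hepacam and Mlc1, which encode partner proteins, both had GR and NFIA peaks at their promoters. So did each of the other genes, counting promoters at any annotated start. At Hepacam the region 249 bp downstream of the start (9:37367514-37367727) had folds of 9.88 and 11.1 in NR replicates 1 and 3, 3.29 and 6.09 in GR-con libraries and 14.2, 6.85 and 10.1 for NFIA. At Mlc1 the region 389 bp downstream (15:88978513-88978772) had folds of 9.29 and 8.95 in NR replicates 1 and 3 and no GR-con peak, and the region at the start (15:88978916-88979187) had folds of 8.17 in NR replicate 3 and 4.61 in GR-con replicate 2. NFIA peaks of all 3 libraries lay in both Mlc1 regions.

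The strongest Hepacam peaks lay upstream. The region 8.5 kb upstream between genes (9:37358675-37359394) had NR folds of 9.56, 7.26 and 9.91, GR-con folds of 7.40 and 9.24, a GR-KO fold of 4.37 in replicate 1 (top 84.8%) and NFIA folds of 22.7, 20.5 and 15.6, and it also held the NFIA peak of oligodendrocyte replicate 2. A region 7.5 kb upstream (9:37359644-37360003) had folds of 12.5 and 23.7 in NR replicates 1 and 3 (top 6.12% and 1.04%) and of 11.5 and 4.41 in GR-con. A region 8.5 kb downstream (9:37375793-37376035) had GR peaks in both GR-con libraries (9.60 and 5.25) and no NR library, with NFIA peaks in all 3 astrocyte libraries.

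**Figure D4:**
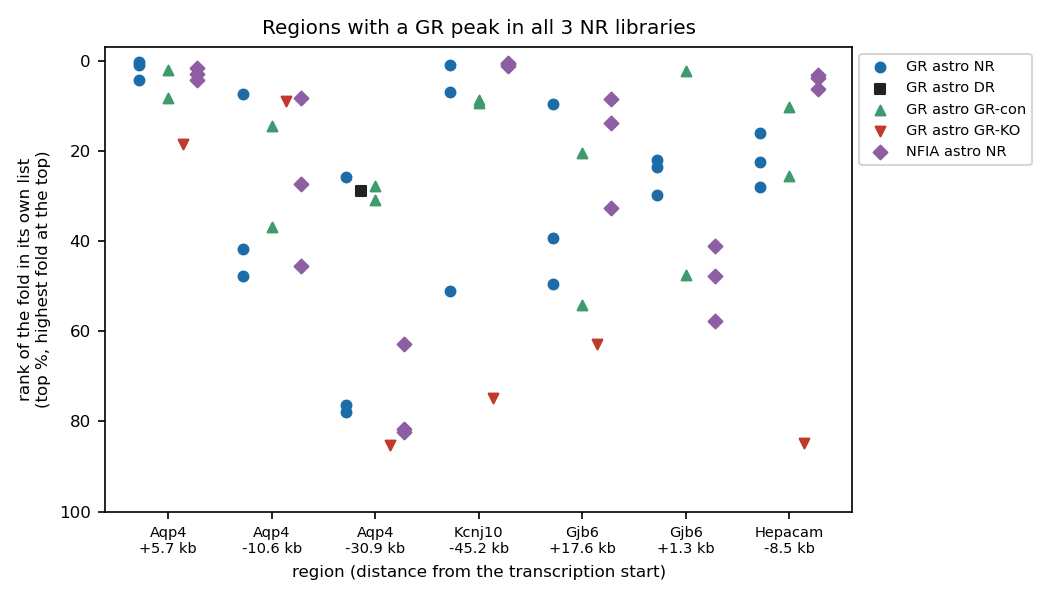
Rank of the peak within its own list (top percent by fold, highest fold at the top) for the 7 regions with a GR peak in all 3 NR libraries, by distance from the transcription start, with 1 point per library that had a peak. The region 5.7 kb downstream of Aqp4 lies within the top 4.24% of all 3 NR lists, and 5 of the 6 GR-KO points, all from replicate 1, lie lower than every GR-con point of their region.

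The cotransporter gene Slc4a4 spans several starts, and the gene record's start left out most of its peaks. At that start (5:88886720-88886888) only NR replicate 3 had a GR peak, with a fold of 6.85, beside NFIA folds of 5.09, 4.07 and 5.82. A further region 43.1 kb downstream (5:88929861-88930061) had NFIA folds of 7.24, 4.79 and 7.44 and no GR peak. When peaks within 50 kb of any annotated start were counted, Slc4a4 had 5, 2 and 6 GR peaks in the NR libraries, 0, 0 and 1 in the DR libraries, 4 in each GR-con library, and 3 and 0 with GR-KO. Each NR library then lay above each DR library, with a mean difference of 4 peaks (exact permutation p = 0.1, adjusted p = 0.736). Under this count 5 of the 7 genes separated, beside 12.3% of all genes. Each NR library also lay above all GR libraries of other V1 cells, with a mean difference of 4.11. Of those, inhibitory and excitatory neuron replicates 1 held 1 peak each. The 8 starts of Slc4a4 reach 141.3 kb from the first, so its window is wider than that of a gene with 1 start. The inner regions were described after these counts were seen. An intronic region 59.4 kb from the first start (5:88946061-88946359) had a GR peak in all 3 NR libraries (folds 4.32, 3.72 and 9.05) and both GR-con libraries, and an intronic region 103.6 kb from it (5:88990106-88990560) in all 3 NR libraries (7.35, 4.26 and 8.85), both GR-con libraries and GR-KO replicate 1 (3.53, top 96.1%). Both had NFIA peaks in all 3 astrocyte libraries. An intronic region 89.1 kb from the first start (5:88975716-88976078) had the Slc4a4 peak of DR replicate 3, with a fold of 8.66 (top 42.3%). In NR replicates 1 and 3 its GR folds were 10.1 and 11.1 (top 13.4% and 16.3%).

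Of the 29 NR GR sites overlapping the 7 windows, 27 (93.1%) overlapped an NFIA site of astrocytes, beside 95.3% of all 12458 NR GR sites. Read from NFIA, 27 of 44 NFIA sites (61.4%) overlapped a GR site, beside 50.4% of 23495. The 2 GR sites without an NFIA site were the Gjb6 region 28.5 kb upstream and a Hepacam region 0.9 kb downstream, where 1 NFIA library had a peak. The median distance between GR and NFIA summits was 23.5 bp over the 28 sites of the 7 genes with an NFIA peak and 22 bp over all sites. GR sites of the 7 genes lay in introns more often than all NR sites (51.7% against 30.3%) and at promoters less often (27.6% against 45.8%) as shares of sites, which is given as a description since many of these sites share the Kcnj10 window. By gene, 6 of the 7 had an NR GR site (50.4% of all protein-coding genes), 5 had a GR-con site (20.7%) and all 7 an NFIA site (65.2%). Kcnj10 had a site in 2 further groups, GR in excitatory neurons and NFIA in oligodendrocytes, and the other 6 genes had none outside astrocytes.

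Within their lists, GR peaks of the 7 genes ranked above the middle in NR astrocytes. Of their peaks 22 of 30, 7 of 8 and 33 of 43 had a fold above the list median in NR replicates 1 to 3, and 13 of 20 and 13 of 24 in the GR-con libraries. In GR-KO replicate 1 this held for 2 of 7. The median fold over the 7 genes' peaks was 7.51, 7.32 and 9.17 in the NR libraries, beside list medians of 6.24, 5.99 and 6.63, and 4.87 beside 6.02 in GR-KO replicate 1. For NFIA the medians were 7.50, 7.84 and 7.30 beside 7.11, 7.01 and 6.65. All 7 regions with a GR-KO peak also had a GR-con peak and all 3 NFIA peaks, and 6 of them had all 3 NR peaks.

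The 101 bp around each summit were read on either strand for 6 motifs. The glucocorticoid response element, written loosely as ACANNNTGT, was found in 0 of the 29 NR GR sites of the 7 genes, beside 2.50% of all NR sites, and its fuller form GNACANNNTGTNC, which contains it, in 0, beside 0.658%. The nuclear factor I half-site TTGGCA was found in 5 (17.2%), beside 12.3%, and in 8 of 44 NFIA sites (18.2%), beside 17.1%. The full nuclear factor I site (TTGGC, 5 free bases, GCCAA) was found in 0 of 29 and 0 of 44, beside 0.00803% and 0.362%. The AP-1 site TGANTCA was found in 2 of 29 (6.90%), beside 2.34%, and the homeobox site TAATTA in 0, beside 2.24%. These are matches of letters in a window and say nothing of which factor bound.

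Other genes of the same structures were counted as 3 lists of 10. Of the endfoot complex, 3 of 10 genes had every NR library above every DR library (10.6% of all genes), with a median difference of 1.17 peaks. Among them were Agrn, the endfoot matrix protein agrin (2, 1 and 5 peaks against 0 in DR), and Dag1, dystroglycan (2, 1 and 4 against 0). Of other astrocyte channels and transporters, 2 of 10 did, with a median of 1.33, among them the sodium pump subunit gene Atp1b2 (11, 4 and 13 peaks against 0, 0 and 1). The chloride channel gene Clcn2 had 5, 0 and 11 and overlapped DR. Of other connexins and pannexins, 2 of 10 did, with a median of 0.33, among them Gjb2 (3, 2 and 3 against 0), whose window overlaps that of Gjb6. Gjb1, a connexin of oligodendrocytes, had 1, 0 and 3. For NFIA, 8, 9 and 5 of the 10 genes of these lists were higher in astrocytes than in other V1 cells at an adjusted p of at most 0.05 in the permutation test, beside 55.2% of all genes.

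The genes whose peak numbers followed the sum over the 7 genes most closely over the 39 libraries, with starts more than 100 kb from all of them, were Acss1 (Pearson r = 0.974 on log2 of peaks plus 1), Abhd10 (0.973), Tagln3 (0.973), Tmprss7 (0.973) and Vsx1 (0.973). Abhd10, Tagln3 and Tmprss7 lie on chromosome 16 and Acss1 and Vsx1 on chromosome 2. These values share the 39 libraries and their list lengths, whose log2 had r = 0.680 with the same sum, and are given as a description.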

How the data were processed

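GR and NFIA CUT&RUN libraries were grouped by their labels: 39 of 50 samples had a peak list (27 GR, 12 NFIA, 15 groups), and 11 (IgG and GFP-negative) were not analysed here. Per the study's methods and the submitters' processing notes, the authors trimmed reads (cutadapt), aligned them to mm10 (Bowtie2), removed duplicates (Picard), filtered by mapping quality (SAMtools) and fragment length (deepTools), and called peaks per library against IgG (MACS2). Each deposited peak carries a fold enrichment (a ratio) and, as −log10, its p and q values, all from the authors' caller, which were used only to rank or filter peaks within a list. V1 lists ended at a q of 0.01 and 3T3 lists at 0.05.

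Peaks with a summit within 50 kb of the gene record's start were counted for 21938 protein-coding genes (GENCODE M21) and compared with two-sided exact permutation tests over libraries, adjusted by Benjamini-Hochberg. A gene was called when every library of the first group lay above every library of the second. Such p-values reflect the spread of these libraries alone, which can be partly technical. Consensus sites needed 2 libraries and 1 bp of overlap. RefSeq sequences matched the reference at 165 of 165 promoters read. Named were all 7 genes, regions in all 3 NR, any DR or any GR-KO library, the best-ranked region of each gene, up to 3 genes of each companion list by NR minus DR, and the 5 genes of most similar pattern; some named items are not reported here. Members and lists were chosen with earlier results of these data known. Alternatives were other windows (10 and 100 kb), any or only the nearest start, a q of at most 1e-5, counts per 1000 peaks, lists of equal length, a replicate block and leaving out each library. The test was checked on simulated data. Python 3.11.15, numpy 2.4.6, pandas 2.3.3, scipy 1.17.1, matplotlib 3.10.9 and pysam 0.24.0 were used.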

Additional observations from a re-analysis of the deposited data

How the results depend on the processing

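Of 200 counts and shares recomputed under the alternatives, 182 stayed within 1.5 times of their value and 18 moved; of 644 differences of single genes, 589 kept their direction and call, and 5 changed sign. Counted per 1000 peaks of a list, the genes separated fell to 2 of 7 for NR against DR and to 2 for GR-con against GR-KO, and the difference turned to -0.52 at Aqp4 and -0.52 at Gjb6 (NR against DR), to -0.32 at Aqp4 (GR-con against GR-KO) and to -0.012 at Kcnj10 (NFIA). With lists cut to the length of the shortest in the comparison, 0 genes separated for NR against DR (28 peaks per list), 2 for GR-con against GR-KO (413 peaks, with Aqp4 at -0.5), 0 for GR in astrocytes against other cells (4 peaks) and 0 for NFIA (1 peak), so the shortest lists leave these without information. The share of all genes separated in cut lists is not reported here, so the 2 for GR-con against GR-KO cannot be read as particular to these genes. At 10 kb, or with peaks given to the nearest start only, Kcnj10 overlapped between NR and DR (3 and 4 peaks apart).

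Leaving out each library in turn gave 4 to 6 genes for NR against DR, 4 to 6 for GR-con against GR-KO, 3 to 6 for GR in astrocytes against other cells, 7 to 7 for NFIA and 0 to 0 for 3T3; 6 were reached without NR replicate 2 or GR-con replicate 1. Genes with a site ranged from 4 to 6 for NR GR and 7 to 7 for NFIA in astrocytes. They ranged from 0 to 1 for GR in excitatory neurons and NFIA in oligodendrocytes, and 0 to 0 elsewhere. With 2 GR-con libraries no such value could be had. The share of all genes with a site when a library is left out is not reported here, so these ranges cannot be read as particular to the 7 genes. The single Kcnj10 site of excitatory neurons fell to 0 when all libraries were required, at 10 kb and at a q of at most 1e-5, and that of oligodendrocytes for NFIA to 0 when all libraries were required and at 10 kb. The share of GR sites with an NFIA site was 100% for sites in all 3 NR libraries and 87.5% to 100% with 1 library left out.

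Same-numbered libraries did not deviate together in every pair (correlations of -0.02, 0.03 and 0.03 for NR with DR, and 0.20, 0.39 and -0.11 for NR with excitatory neurons), so the numbers were not taken as pairs. With a replicate block 4, 4, 4, 7 and 0 genes separated in the 5 comparisons in the order above, Kcnj10 being added for GR against other cells. The share of all genes called under the block is not reported here, so these counts cannot be read as particular to the 7 genes. Read depth is unknown, so a region without a peak was not detectable in that list and is not shown to be unbound.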
